A study of Mus musculus with 6 samples.

Results

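The 51 genes described here encode the ephrins and their Eph receptors, the class 3 semaphorins with plexins and neuropilins, the SLIT and ROBO proteins, and 2 netrins with the UNC5 receptors. They were taken by symbol, matched to the Ensembl identifier in the deposited count table, and a gene was kept when it had at least 10 counts in at least 3 of the 6 samples. This left 50 of the 51 listed genes among 56748 identifiers. *Robo3*, a receptor of the ROBO family, was not kept, with 1, 6 and 3 counts in the controls and 7, 7 and 20 counts after LiCl, each in the order of replicates 1 to 3. The samples were ureters of E12.5 wildtype NMRI mouse embryos, kept as explants in culture for 18 h. In 3 samples the medium held 15 mM LiCl, which inhibits the kinase GSK3B and thereby stabilizes the WNT mediator CTNNB1. The other 3 samples received water and served as control. All samples share the strain, the age, the wildtype genotype and the culture time. LiCl is not specific to GSK3B, and the ureter at this age is a bulk tissue of mesenchyme around an epithelial tube, with vessels and nerve cells passing through it. The sources used here do not state how many ureters were pooled for a sample or whether samples came from separate cultures, so the p-values measure the spread between these samples only.

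Guidance proteins tell moving or growing cells where to go and where to stop. Ephrins sit on the cell surface and signal to Eph receptor tyrosine kinases of the neighbouring cell, and also back into the cell that carries them, which keeps cell populations apart. Class 3 semaphorins, SLIT proteins and netrins are mostly secreted. Semaphorins are read by plexins with neuropilins as co-receptors, SLIT proteins by ROBO receptors, and netrins by the receptors of the DCC and UNC5 families, of which UNC5 mediates repulsion. The same systems shape vessels and epithelial organs, and in the urinary system SLIT2 and ROBO2 are known for limiting the outgrowth of the ureteric bud to a single site.

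Because LiCl acts on the pathway that ends at TCF/LEF factors, the letters upstream of the genes are shown for 4 of them, by rule the gene of each ligand and receptor system with the largest change past the test at a mean level of at least 1 FPKM whose 250 bases before the start site overlap no annotated exon. FPKM are counts per length and depth. The sequences are from RefSeq, build GRCm38.p6, read 5′ to 3′ on the strand of the gene and ending at the base before the start site. Capitals mark the hexamers CTTTGA and CTTTGT, cores of the TCF/LEF motif, on either strand.
*Epha3*, chr16:63864176-63864425, minus strand: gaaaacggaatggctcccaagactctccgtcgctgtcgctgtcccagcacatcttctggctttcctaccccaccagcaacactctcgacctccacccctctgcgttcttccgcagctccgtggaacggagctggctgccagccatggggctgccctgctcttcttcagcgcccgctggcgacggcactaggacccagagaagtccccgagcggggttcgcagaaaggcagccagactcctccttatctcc
*Sema3d*, chr5:12382916-12383165, plus strand: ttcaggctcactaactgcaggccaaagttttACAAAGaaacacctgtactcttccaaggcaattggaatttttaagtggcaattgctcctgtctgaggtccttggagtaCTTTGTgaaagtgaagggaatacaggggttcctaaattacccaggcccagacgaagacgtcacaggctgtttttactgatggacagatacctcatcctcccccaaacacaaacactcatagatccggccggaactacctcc
*Robo1*, chr16:72662899-72663148, plus strand: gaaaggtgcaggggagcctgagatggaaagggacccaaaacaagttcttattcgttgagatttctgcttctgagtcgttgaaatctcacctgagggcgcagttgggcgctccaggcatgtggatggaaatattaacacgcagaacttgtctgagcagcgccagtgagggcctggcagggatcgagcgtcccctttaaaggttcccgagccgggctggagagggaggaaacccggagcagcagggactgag
*Unc5b*, chr10:60831582-60831831, minus strand: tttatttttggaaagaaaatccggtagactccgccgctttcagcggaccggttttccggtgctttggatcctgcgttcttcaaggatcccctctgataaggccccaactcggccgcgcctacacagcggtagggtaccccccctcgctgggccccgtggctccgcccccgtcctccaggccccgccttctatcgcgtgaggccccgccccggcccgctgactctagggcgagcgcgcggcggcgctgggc
Of these 4 windows, the window of *Sema3d* held 2 cores and the other 3 windows held none. These 4 genes fell after LiCl (values below). Windows of 300 bases, 250 before and 50 after the start site, were found for 42 of the 50 genes, with 48 windows in all. *Slit1*, *Sema3b*, *Sema3f*, *Plxna1*, *Plxna4*, *Efnb3*, *Unc5d* and *Ntn1* had no window. At least 1 core on either strand lay in 11 of the 48 windows, or 22.9%, as compared to 31.2% of the 32851 windows of all genes. Among genes that fell it lay in 3 of 28 windows, among those that did not pass the test in 7 of 18 windows, and among those that rose in 1 of 2 windows. The windows of the guidance genes were rich in G and C, with a median of 64.8% as compared to 52.7% in all windows, and held a median of 22.5 CG dinucleotides as compared to 7 in all windows. The hexamers hold more A and T than these windows do, and the effect of this on the shares was not tested. A match of 6 letters is not a binding site, and a window without a match says nothing on binding elsewhere.

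The depth of the 6 samples lay between 28473436 and 31266945 counts, and the samples within a group differed beyond sampling noise (chi-square over degrees of freedom, 5.82 to 14.5). As a check of the labels, 7 of 8 listed WNT response genes rose after LiCl and none fell, where 21.1% of all tested genes rose and 22.4% fell. Genes of skeletal muscle set LiCl replicates 1 and 3 apart from the other samples. Their summed level was 11 and 23.1 FPKM in these 2 samples, 2.68 FPKM in LiCl replicate 2 and 2.79 to 3.23 FPKM in the controls. Of the 5 tested genes of this list, 4 were called higher, where 2.74% of all tested genes were called higher. Results are therefore also given without these 2 samples, which leaves 1 LiCl sample against 3 controls, so that its spread is taken from the controls.

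More guidance genes fell than rose after LiCl, mostly by small amounts. LiCl and control counts were compared by the quasi-likelihood test of edgeR on all 18188 genes that passed its filter on low counts, with Benjamini-Hochberg adjustment over all of them, and all 50 guidance genes were tested. Log2 fold changes are given with their standard error (SE). At an adjusted p under 0.05, 27 of the 50 genes fell, or 54%, where 22.4% of all tested genes fell. In the other direction, 5 of the 50 genes rose, or 10%, where 21.1% of all tested genes rose. The remaining 18 genes did not pass the test. One of the genes that rose, *Slit1*, met the filter on low counts, 10 counts in 3 samples, only through the LiCl samples. Among the 44 genes with a mean level of at least 1 FPKM, 26 fell, or 59.1%, where 23.3% of all tested genes with such a level fell. The genes are long, with a median length of 6929 bases as compared to 3860 bases for all tested genes, and 23.8% of the tested genes longer than that median fell. The median log2 fold change was -0.23 for the guidance genes and -0.01 for all tested genes, with 39 guidance genes below 0 and 11 above. In 23 genes, or 46%, every LiCl sample lay below every control sample, which held for 26.2% of all tested genes. In 6 genes, or 12%, every LiCl sample lay above every control sample, which held for 28.0% of all tested genes. *Slit1*, with the limit given above, is among these 6 genes. In bulk samples, fewer cells of a type and less RNA per cell cannot be told apart.

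**Figure D1:**
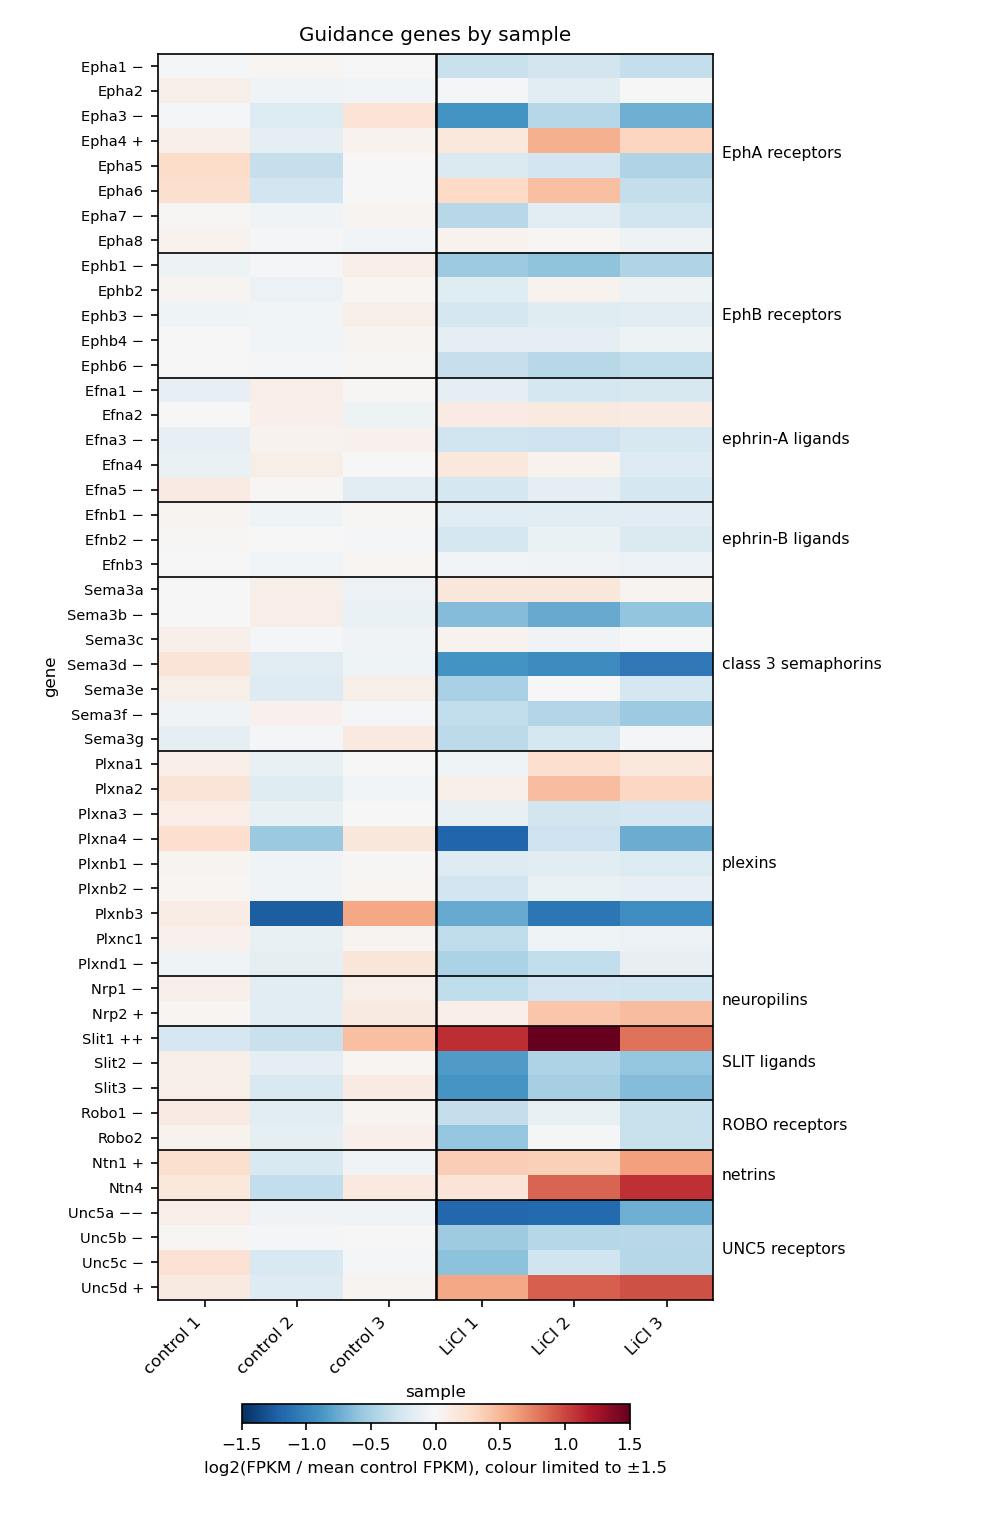
Each row is a guidance gene and each column a sample, and the colour gives log2 of the FPKM over the mean FPKM of the 3 controls, limited to 1.5 in either direction. A minus or plus sign marks genes that fell or rose at an adjusted p under 0.05, and a double sign marks those also past a log2 fold change of 1. Blue fields fill most rows of the 3 LiCl columns, and red fields mark *Slit1*, *Unc5d*, *Ntn4*, *Ntn1*, *Nrp2* and *Epha4*.

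With the additional demand of a log2 fold change above 1 or below -1, 1 guidance gene was called higher and 1 called lower, where 2.74% of all tested genes were called higher and 4.59% called lower. The gene called higher was *Slit1* and the gene called lower was *Unc5a*, and neither reached a mean level of 1 FPKM. *Slit1* reached 10 counts in 1 of 3 controls and in all LiCl samples, so that its call is given as a description only. *Sema3d* lay next to the threshold at -0.99 and passed it without control replicate 2 (-1.06), without control replicate 3 (-1.01) and without LiCl replicate 1 (-1.02). The genes that rose were *Epha4*, *Nrp2*, *Ntn1*, *Slit1* and *Unc5d*, and their number depended on single samples. Without control replicate 2 only *Unc5d* of these 5 rose, and without LiCl replicate 2 this number was 2. It was 3 without control replicate 1 or LiCl replicate 3, 4 without control replicate 3 and 5 without LiCl replicate 1. Without LiCl replicates 1 and 3 it was 4, with the call of *Ntn1* lost. The number of genes that fell lay between 18 and 27 when each sample was left out in turn. Without LiCl replicates 1 and 3 it was 9, and the share of all tested genes that fell was then 10.9%. These 9 genes were *Ephb1*, *Ephb6*, *Sema3b*, *Sema3d*, *Sema3f*, *Slit2*, *Slit3*, *Unc5a* and *Unc5b*, and the other 18 of the 27 did not pass.

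**Figure D2:**
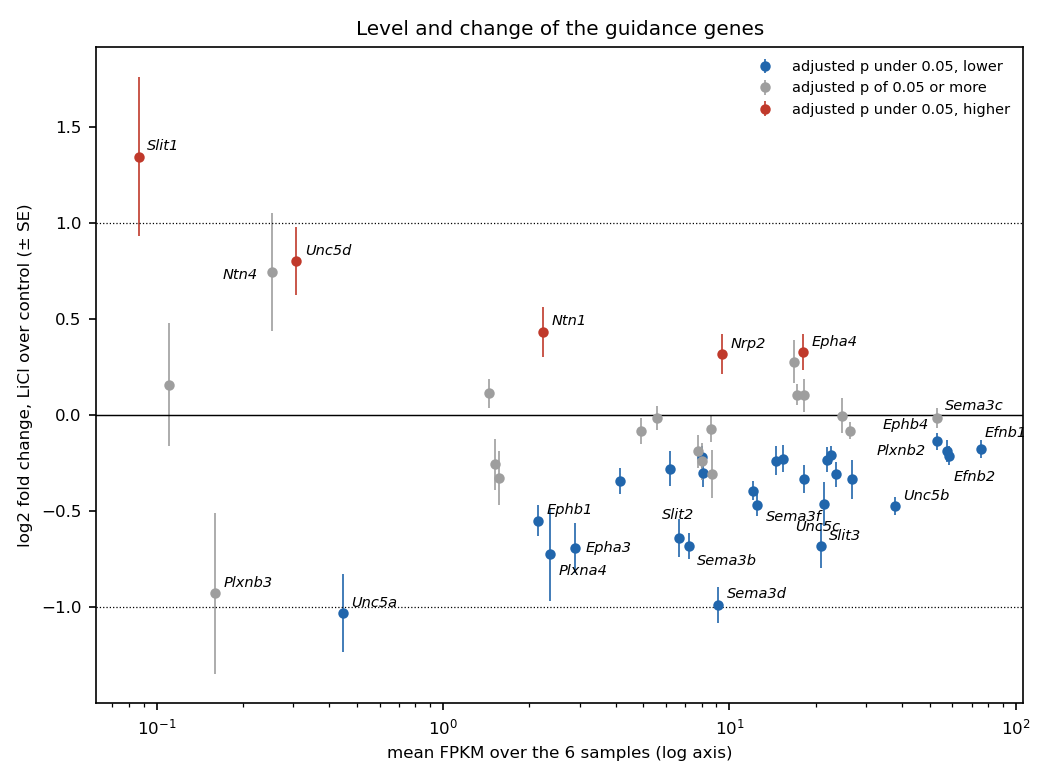
The mean FPKM over the 6 samples (log axis) is plotted against the log2 fold change of LiCl over control, with bars for the standard error, for the 50 guidance genes. Blue points are genes that fell, red points genes that rose and grey points genes that did not pass the test, and dotted lines mark a log2 fold change of 1 and -1. The blue points lie between -0.14 and -1.03, and the largest increases, those of *Slit1* and *Unc5d*, belong to genes with a mean level under 0.5 FPKM.

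Of the 8 EphA receptors, 3 fell and 1 rose. *Epha7* (ENSMUSG00000028289) was the most abundant, with 26.2, 25.02 and 26.6 FPKM in the controls and 19.5, 23.1 and 21.1 FPKM after LiCl, again in the order of replicates 1 to 3. All LiCl samples lay below all controls, with a log2 fold change of -0.31 (SE 0.06, adjusted p = 0.0043). *Epha3* (ENSMUSG00000052504) had 3.49, 3.09 and 4.08 FPKM in the controls and 1.92, 2.63 and 2.14 FPKM after LiCl. This was the largest change of the family, with no overlap between the groups and a log2 fold change of -0.69 (SE 0.13, adjusted p = 0.0025). Without LiCl replicates 1 and 3, neither *Epha7* (-0.18, adjusted p = 0.14) nor *Epha3* (-0.44, adjusted p = 0.070) passed the test. *Epha1*, which is known from epithelia, fell with a log2 fold change of -0.34 from a mean of 4.60 to 3.67 FPKM.

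*Epha4* (ENSMUSG00000026235), a receptor that binds ephrins of both classes, went the other way. Its levels were 16.7, 14.5 and 16.6 FPKM in the controls and 17.8, 23.0 and 20.0 FPKM after LiCl. The groups did not overlap, and the log2 fold change was 0.33 (SE 0.09, adjusted p = 0.019), a call that was lost without control replicate 2 (adjusted p = 0.060) or LiCl replicate 2 (adjusted p = 0.0502) and with the replicate number as a block (adjusted p = 0.057). The levels of *Epha4* and *Epha7* were closer after LiCl than in the control. The ratio of *Epha4* to *Epha7* was 0.614 ± 0.031 (SD, n = 3) in the control and 0.953 ± 0.041 (SD, n = 3) after LiCl, and that of *Epha4* to *Epha3* was 4.51 ± 0.40 and 9.13 ± 0.34. *Epha2*, *Epha5*, *Epha6* and *Epha8* did not pass the test, with log2 fold changes from -0.33 (*Epha5*) to 0.16 (*Epha6*, at a mean of 0.110 FPKM). *Epha5* passed it without control replicate 2 (-0.47, adjusted p = 0.0075).

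Of the 5 EphB receptors, which are bound by transmembrane ephrins, 4 fell and none rose. *Ephb4* (ENSMUSG00000029710), known from veins, took 65.0% of the summed EphB level in the control and 67.5% after LiCl. Its levels were 55.1, 53.4 and 56.9 FPKM in the controls and 50.3, 49.8 and 52.3 FPKM after LiCl. The groups lay close together without overlap, with a log2 fold change of -0.14 (SE 0.05, adjusted p = 0.036). This call was lost when any single sample other than control replicate 2 was left out, with adjusted p between 0.072 and 0.16, and with DESeq2 (adjusted p = 0.091). *Ephb1* (ENSMUSG00000032537), the least abundant of the family, showed its largest change. It had 2.41, 2.51 and 2.72 FPKM in the controls and 1.75, 1.68 and 1.86 FPKM after LiCl, so that the LiCl samples lay well below the controls. The log2 fold change was -0.55 (SE 0.08, adjusted p = 6.3e-04). *Ephb6*, which lacks kinase activity, fell with a log2 fold change of -0.39, and *Ephb3* with -0.22, which did not pass without control replicate 3 (adjusted p = 0.066). *Ephb2* had a log2 fold change of -0.08 and did not pass the test.

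Ephrins were abundant in these ureters. Of the 5 ephrin-A genes, whose products are tied to the membrane by a lipid anchor, 3 fell and none rose. *Efna4* (ENSMUSG00000028040) had the highest mean level, with 23.0, 26.2 and 24.8 FPKM in the controls and 27.5, 25.6 and 21.5 FPKM after LiCl. LiCl replicate 1 was the highest and LiCl replicate 3 the lowest of all 6 samples, and the log2 fold change was -0.0030 (SE 0.09, adjusted p = 0.98). *Efna3* (ENSMUSG00000028039) showed the largest change of the family. Its levels were 8.15, 9.24 and 9.27 FPKM in the controls and 7.25, 7.14 and 7.5 FPKM after LiCl. The groups did not overlap, with a log2 fold change of -0.30 (SE 0.07, adjusted p = 0.0081). *Efna1* and *Efna5* fell with log2 fold changes of -0.23 and -0.24. *Efna1* did not pass without control replicate 2 or 3 or LiCl replicate 2 or 3, and *Efna5* without control replicate 1 or 2 or LiCl replicate 1 or 3, with adjusted p from 0.062 to 0.11. *Efna2* lay higher in all LiCl samples than in all controls, yet its log2 fold change of 0.11 did not pass the test.

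Of the 3 ephrin-B genes, whose products span the membrane, 2 fell and none rose. *Efnb1* (ENSMUSG00000031217) had the highest mean level of all 50 genes, with 82.0, 76.1 and 80.5 FPKM in the controls and 71.1, 71.1 and 71.5 FPKM after LiCl. The LiCl samples were almost identical and lay below all controls, with a log2 fold change of -0.18 (SE 0.05, adjusted p = 0.013). *Efnb2* (ENSMUSG00000001300), known from arteries and as a ligand of EPHB4, had 63.3, 62.2 and 61.8 FPKM in the controls and 52.0, 58.1 and 53.7 FPKM after LiCl. This was the largest change among the ephrin-B genes, again without overlap, with a log2 fold change of -0.21 (SE 0.05, adjusted p = 0.0088). *Efnb1* did not pass without control replicate 3 (adjusted p = 0.055) or without LiCl replicate 3 (adjusted p = 0.0504). *Efnb3* did not pass the test, with a log2 fold change of -0.08.

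Of the 7 class 3 semaphorins, 3 fell and none rose. *Sema3c* (ENSMUSG00000028780) was by far the most abundant, with 55.8, 52.2 and 50.9 FPKM in the controls and 55.1, 51.1 and 53.1 FPKM after LiCl. The groups overlapped fully, and the log2 fold change was -0.01 (SE 0.05, adjusted p = 0.85). *Sema3d* (ENSMUSG00000040254) had 13.9, 10.8 and 11.6 FPKM in the controls and 6.49, 6.26 and 5.76 FPKM after LiCl. Every LiCl sample lay well below every control, with a log2 fold change of -0.99 (SE 0.09, adjusted p = 5.0e-05), the largest decrease among the genes with a mean level of at least 1 FPKM. *Sema3b* (ENSMUSG00000057969) had 8.82, 9.48 and 8.26 FPKM in the controls and 5.65, 5.25 and 5.86 FPKM after LiCl. Here also the groups were far apart, with a log2 fold change of -0.68 (SE 0.07, adjusted p = 7.0e-05). *Sema3f*, a ligand read through NRP2, fell with a log2 fold change of -0.47 from a mean of 14.4 to 10.6 FPKM. *Sema3a*, *Sema3e* and *Sema3g* did not pass the test, with log2 fold changes of 0.11, -0.26 and -0.24. *Sema3e* passed it without LiCl replicate 2 (-0.39) and *Sema3g* without LiCl replicate 3 (-0.34). *Sema3c* took 53.0% of the summed class 3 level in the control and 61.9% after LiCl.

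Semaphorins are read by plexins, of which 5 of 9 fell and none rose. *Plxnb2* (ENSMUSG00000036606) was the most abundant. It had 61.9, 58.6 and 62.1 FPKM in the controls and 50.01, 56.7 and 55.7 FPKM after LiCl. The LiCl samples lay below all controls, with a log2 fold change of -0.19 (SE 0.06, adjusted p = 0.026), a call that was lost without control replicate 1, control replicate 3, LiCl replicate 1 or LiCl replicate 3 (adjusted p from 0.056 to 0.098). *Plxna4* (ENSMUSG00000029765) fell with a log2 fold change of -0.72 (SE 0.24, adjusted p = 0.036), though its samples were spread. Its levels were 3.5, 2.00 and 3.31 FPKM in the controls and 1.29, 2.37 and 1.75 FPKM after LiCl, so that control replicate 2 lay below LiCl replicate 2. The call was lost without control replicate 1, control replicate 3, LiCl replicate 1 or LiCl replicate 3, with adjusted p from 0.097 to 0.11. With all samples it was also lost with DESeq2 (adjusted p = 0.097), with the replicate number as a block (adjusted p = 0.093) and in limma on log2 FPKM (adjusted p from 0.084 to 0.18). *Plxnb3* (ENSMUSG00000031385) had the largest difference of the family at a level close to 0, with 0.226, 0.0888 and 0.314 FPKM in the controls and 0.124, 0.0991 and 0.110 FPKM after LiCl. Control replicate 2 was the lowest of all 6 samples, and the log2 fold change of -0.93 (SE 0.42, adjusted p = 0.10) did not pass the test with this sample but passed it without (-1.29, adjusted p = 0.0070).

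Of the other plexins, *Plxnd1*, which is known from vessels and as the receptor of SEMA3E, fell with a log2 fold change of -0.33, *Plxna3* with -0.23 and *Plxnb1* with -0.21. *Plxnd1* did not pass without control replicate 3 or LiCl replicate 1 or 2, and *Plxna3* without control replicate 1 or 3 or LiCl replicate 2 or 3, with adjusted p from 0.069 to 0.11. The log2 fold changes of *Plxna1*, *Plxna2* and *Plxnc1* were 0.10, 0.28 and -0.19 and did not pass the test, which *Plxna2* passed as higher without control replicate 1 (0.39) or LiCl replicate 1 (0.37) and, with all samples, with DESeq2 (0.30, adjusted p = 0.011). The neuropilins, co-receptors that bind the semaphorin itself, moved in opposite directions. *Nrp1* (ENSMUSG00000025810), the partner of SEMA3A, had 21.4, 18.0 and 21.5 FPKM in the controls and 15.6, 16.7 and 16.5 FPKM after LiCl. All LiCl samples lay below all controls, with a log2 fold change of -0.33 (SE 0.07, adjusted p = 0.0054). *Nrp2* (ENSMUSG00000025969) had 8.46, 7.38 and 9.11 FPKM in the controls and 8.90, 11.1 and 11.5 FPKM after LiCl. LiCl replicate 1 overlapped with the controls, and the log2 fold change was 0.32 (SE 0.10, adjusted p = 0.034). The call was lost without control replicate 1, control replicate 2, LiCl replicate 2 or LiCl replicate 3 (adjusted p from 0.063 to 0.12). The ratio of *Nrp2* to *Nrp1* was 0.396, 0.411 and 0.423 in the controls and 0.569, 0.667 and 0.694 after LiCl. This pair was picked after its values were seen. *Nrp1* alone already separated the groups, so that the separation of the ratio is no added evidence on *Nrp2*.

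Of the 3 SLIT ligands, 2 fell and 1 rose. *Slit3* (ENSMUSG00000056427) had 27.1, 21.8 and 27.8 FPKM in the controls and 13.9, 18.1 and 16.3 FPKM after LiCl. The groups did not overlap, and the log2 fold change was -0.68 (SE 0.11, adjusted p = 0.0012). *Slit2* (ENSMUSG00000031558) had 8.63, 7.36 and 8.26 FPKM in the controls and 4.47, 5.85 and 5.42 FPKM after LiCl. It also fell without overlap, with a log2 fold change of -0.64 (SE 0.10, adjusted p = 7.8e-04). The ratio of *Slit3* to *Slit2* was 3.15 ± 0.20 (SD, n = 3) in the control and 3.07 ± 0.05 (SD, n = 3) after LiCl. *Slit1* (ENSMUSG00000025020) was called higher at a level close to 0, after it had met the filter on low counts only through the LiCl samples. It was counted 7, 7 and 12 times in the controls and 19, 31 and 14 times after LiCl, or 0.0404, 0.0379 and 0.0655 FPKM and 0.103, 0.187 and 0.0841 FPKM. All LiCl samples lay above all controls, with LiCl replicate 2 the highest, and the log2 fold change was 1.35 (SE 0.41, adjusted p = 0.026). The call was lost without control replicate 1 (adjusted p = 0.077), control replicate 2 (adjusted p = 0.083) or LiCl replicate 2 (0.94, adjusted p = 0.10), and with DESeq2 (adjusted p = 0.057). *Slit1* took 0.141% of the summed SLIT level in the control and 0.573% after LiCl.

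Of the 2 ROBO receptors that were kept, 1 fell. *Robo2* (ENSMUSG00000052516), the more abundant ROBO receptor, had 9.94, 8.70 and 10.1 FPKM in the controls and 6.42, 9.50 and 7.61 FPKM after LiCl. LiCl replicate 2 lay between the controls, and the log2 fold change of -0.31 (SE 0.12, adjusted p = 0.076) did not pass the test. Without LiCl replicate 2 it was -0.47 and passed (adjusted p = 0.0041). With all samples *Robo2* passed with DESeq2 (adjusted p = 0.027), with library size only (adjusted p = 0.039), with the offset for gene length (adjusted p = 0.028) and without filter on low counts (adjusted p = 0.0030). *Robo1* fell with a log2 fold change of -0.28 from a mean of 6.76 to 5.63 FPKM, with overlap between the groups, and did not pass without control replicate 1 or 3 or LiCl replicate 1 or 3 (adjusted p from 0.098 to 0.12).

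The 2 netrins of the list, *Ntn1* and *Ntn4*, had the lowest summed level of the 11 families. *Ntn3*, a netrin placed among the further ligands below, was more abundant and fell. Its mean was 15.1 FPKM in the control and 12.1 FPKM after LiCl, with a log2 fold change of -0.33 (SE 0.05, adjusted p = 6.3e-04). *Ntn1* (ENSMUSG00000020902) had 2.23, 1.61 and 1.82 FPKM in the controls and 2.44, 2.42 and 2.88 FPKM after LiCl. All LiCl samples lay above all controls, with a log2 fold change of 0.43 (SE 0.13, adjusted p = 0.023), and the call was lost without control replicate 2 (adjusted p = 0.065), control replicate 3 (adjusted p = 0.070) or LiCl replicate 3 (adjusted p = 0.080), and without LiCl replicates 1 and 3 (0.35, adjusted p = 0.19). *Ntn4* (ENSMUSG00000020019), whose product is a component of basement membranes, was counted 23, 17 and 24 times in the controls and 25, 36 and 42 times after LiCl. These few counts gave 0.210, 0.146 and 0.207 FPKM in the controls and 0.215, 0.344 and 0.400 FPKM after LiCl. LiCl replicate 1 lay just above the highest control, and the log2 fold change of 0.74 (SE 0.31, adjusted p = 0.078) did not pass the test. It passed without LiCl replicate 1 (0.97, adjusted p = 0.030).

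Of the 4 UNC5 receptors, 3 fell and 1 rose. *Unc5b* (ENSMUSG00000020099), known from vessels, was the most abundant, with 44.3, 43.2 and 44.2 FPKM in the controls and 30.4, 32.5 and 32.9 FPKM after LiCl. Both groups were tight and far apart, with a log2 fold change of -0.47 (SE 0.05, adjusted p = 6.3e-05). *Unc5a* (ENSMUSG00000025876) was called lower. It was counted 78, 75 and 74 times in the controls and 34, 31 and 42 times after LiCl, or 0.639, 0.577 and 0.574 FPKM and 0.263, 0.266 and 0.359 FPKM. The groups did not overlap, with a log2 fold change of -1.03 (SE 0.20, adjusted p = 0.0030). It kept an adjusted p under 0.05 with each sample left out, but lay above a log2 fold change of -1 without control replicate 1 (-0.97), LiCl replicate 1 (-0.95) or LiCl replicate 2 (-0.96).

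*Unc5d* (ENSMUSG00000063626), which also binds the adhesion protein FLRT2, rose. It had 0.245, 0.195 and 0.228 FPKM in the controls and 0.332, 0.415 and 0.432 FPKM after LiCl, resting on 56 to 112 counts per sample. All LiCl samples lay above all controls, with a log2 fold change of 0.80 (SE 0.18, adjusted p = 0.0056). *Unc5c*, the other abundant UNC5 receptor, fell with a log2 fold change of -0.46 from a mean of 24.7 to 18.1 FPKM. In the control, *Unc5b* took 63.4% and *Unc5c* 35.4% of the summed UNC5 level, while *Unc5a* took 0.860% and *Unc5d* 0.320%. After LiCl, *Unc5a* took 0.582% and *Unc5d* 0.772%.

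Summed over a family, the levels show where most of the transcripts lay. The summed SLIT level was 35.7, 29.2 and 36.1 FPKM in the controls and 18.4, 24.2 and 21.8 FPKM after LiCl, a ratio of LiCl to control of 0.638. For the UNC5 receptors this ratio was 0.732, for the class 3 semaphorins 0.857, for the EphB receptors 0.887 and for the ephrin-B genes 0.898. In these 5 families the sums of the groups did not overlap. Every LiCl sample lay below every control in 26.2% of all tested single genes, and no such share was formed for sums. Single genes weigh heavily in the sums. In the control, *Slit3* took 75.8% of the SLIT, *Unc5b* 63.4% of the UNC5 and *Ephb4* 65.0% of the EphB level. *Sema3c* took 53.0% of the class 3 semaphorin and *Efnb1* 47.1% of the ephrin-B level. The sums overlapped for the ROBO receptors (0.828), plexins (0.915), neuropilins (0.936), ephrin-A genes (0.940) and EphA receptors (0.950). The 2 listed netrins were the only family with a higher sum, at a ratio of 1.4. Their sum was 2.44, 1.75 and 2.03 FPKM in the controls and 2.66, 2.76 and 3.28 FPKM after LiCl. It leaves out *Ntn3*, which fell from a higher level (values above). No test was made on these sums, since their members were not chosen independently of earlier results.

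**Figure D3:**
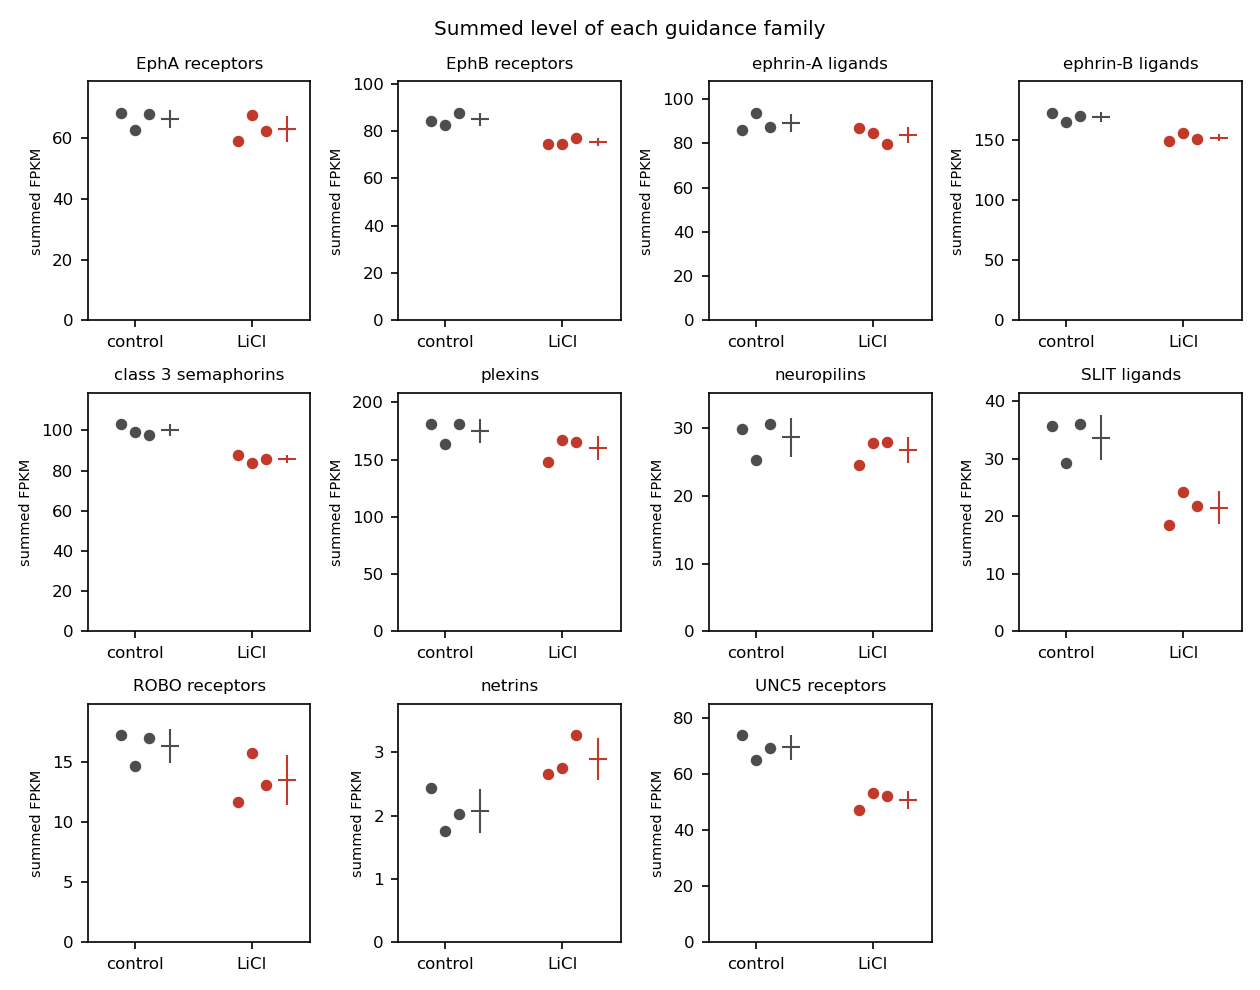
Each panel shows the summed FPKM of the listed genes of a family, with a point per sample in replicate order and a bar with whiskers for the mean and SD of the 3 samples of a group, on axes that start at 0. The SLIT, UNC5, class 3 semaphorin, EphB and ephrin-B sums were lower in every LiCl sample than in every control. The sum of the 2 listed netrins was higher.

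Ratios between members were formed for pairs picked after their values were seen, and are given without test. *Sema3c* to *Sema3d* was 4.03, 4.82 and 4.40 in the controls and 8.50, 8.16 and 9.21 after LiCl. The mean level of *Sema3c* was 53.0 FPKM in the control and 53.1 FPKM after LiCl, and that of *Sema3d* 12.1 and 6.17 FPKM. By contrast, *Unc5c* to *Unc5b* was 0.562 ± 0.083 (SD, n = 3) in the control and 0.567 ± 0.044 (SD, n = 3) after LiCl. For a ligand and its receptor, *Slit2* to *Robo2* was 0.844 ± 0.025 in the control and 0.675 ± 0.052 after LiCl, whereas *Ephb4* to *Efnb2* was 0.884 ± 0.033 and 0.933 ± 0.065 (each SD, n = 3).

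**Figure D4:**
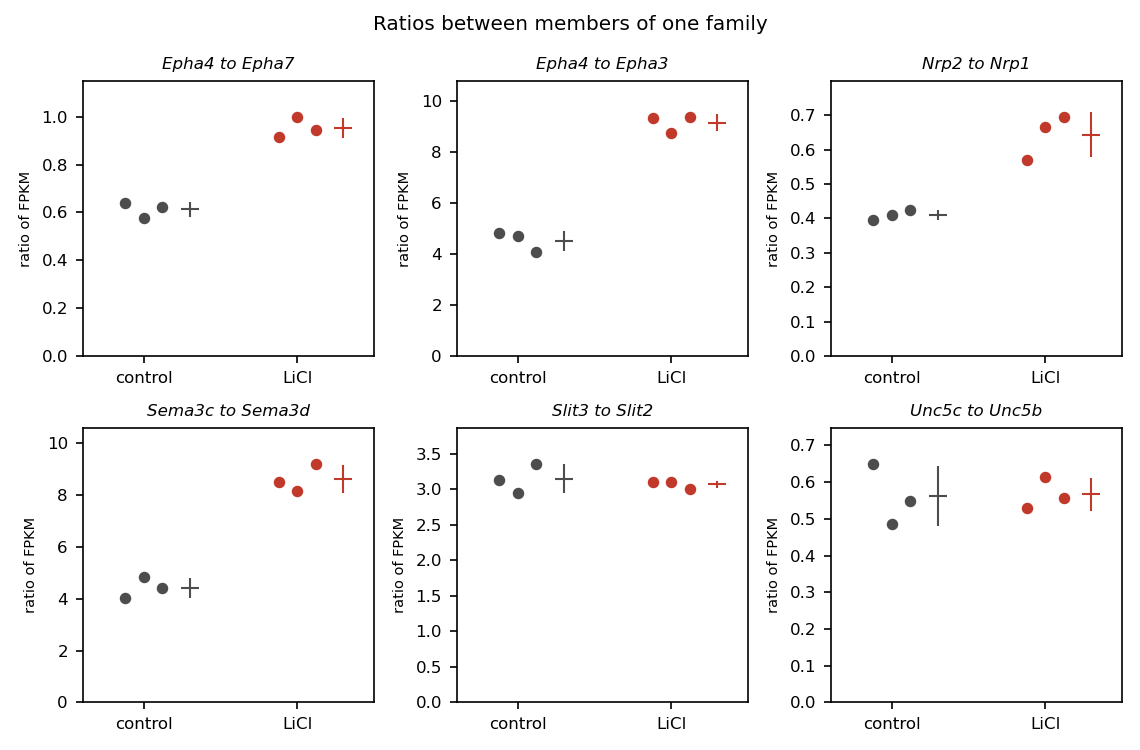
Each panel shows the ratio of the FPKM of 2 genes of the same family, with a point per sample in replicate order and a bar with whiskers for the mean and SD of the 3 samples of a group. The groups are apart for *Epha4* to *Epha7*, *Epha4* to *Epha3*, *Nrp2* to *Nrp1* and *Sema3c* to *Sema3d*, and overlap for *Slit3* to *Slit2* and *Unc5c* to *Unc5b*.

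Further ligands and receptors of the same pathways were listed as well. Of 27 listed genes, among them the semaphorins of other classes, *Dcc*, *Neo1* and the FLRT adhesion proteins, 26 were tested, 10 fell, 1 rose and 15 did not pass, where 22.4% of all tested genes fell and 21.1% rose. The median log2 fold change was -0.15. *Flrt1*, a ligand of UNC5 receptors, was the only gene of this list that was called, with a log2 fold change of -1.24 (SE 0.16, adjusted p = 3.2e-04) and a mean of 2.61 FPKM in the control and 1.12 FPKM after LiCl. *Ntng1*, a membrane-anchored netrin, was the gene that rose, with a log2 fold change of 0.17 (adjusted p = 0.031). *Dcc* and *Neo1*, which bind netrin-1 as attractive receptors, had log2 fold changes of 0.01 and -0.05 and did not pass the test.

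Downstream of the receptors, 35 genes of cytoskeletal and signalling effectors were listed and 34 tested, of which 11 fell, 8 rose and 15 did not pass, where 22.4% of all tested genes fell and 21.1% rose. The median log2 fold change was -0.12, and no gene was called. *Rras*, a small GTPase that plexins inactivate, showed the largest decrease, from a mean of 16.9 to 10.9 FPKM with a log2 fold change of -0.65 (SE 0.09, adjusted p = 3.5e-04). *Dpysl4* of the collapsin response mediators showed the largest increase, from a mean of 22.3 to 33.0 FPKM with a log2 fold change of 0.55 (SE 0.06, adjusted p = 9.7e-05).

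Markers of the main cell types of the explants were lower after LiCl as well. In the list of ureteric epithelium, 8 of 10 genes fell and 1 rose, and the summed level lay between 530 and 673 FPKM in the controls and between 408 and 431 FPKM after LiCl. In the list of ureteric mesenchyme, 6 of 10 genes fell and 2 rose, with sums of 629 to 657 FPKM in the controls and 520 to 524 FPKM after LiCl. The part of these cell types, and of those that follow, in the changes of the guidance genes was not tested. Endothelium is known to express *Ephb4*, *Efnb2*, *Plxnd1*, *Nrp1* and *Unc5b*. Of its 10 listed genes 1 fell, *Tek*, with a log2 fold change of -1.15. The sums were spread within both groups and overlapped, with 119 to 155 FPKM in the controls and 116 to 142 FPKM after LiCl. Among genes listed for neural crest, glia and neurons 3 of 10 fell, *Erbb3*, *Ret* and *Stmn2*. The sums overlapped, with 76.1 to 87.6 FPKM in the controls and 59.1 to 79.9 FPKM after LiCl. Among macrophage genes 3 of 6 fell and 1 rose, with overlapping sums of 17.9 to 30.4 FPKM in the controls and 16.7 to 23.8 FPKM after LiCl. Of 7 genes listed for kidney progenitors 3 fell and 2 rose. Their sums were 28.4 to 31.5 FPKM in the controls and 25.1 to 27.0 FPKM after LiCl. The study reports *Lhx1* and *Pax8* of this list in the ureteric epithelium of mutants without mesenchymal *Ctnnb1*. The list is therefore not specific to kidney progenitors. No list had a gene at 0 in all samples.

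Within a group, the deviations of most samples varied with gene length, both across all genes and across the guidance genes. For the 46 genes with a mean of over 50 counts, Spearman's rho between the length and the deviation of a sample from its group mean was 0.56, -0.68 and 0.23 in the controls, in replicate order, and -0.52, 0.62 and -0.03 after LiCl. This is a correlation across genes, which are not independent replicates. The same values across 14309 genes were 0.35, -0.45, 0.14, -0.20, 0.19 and 0.05, so the sign was shared in all samples but LiCl replicate 3. On the log2 scale, the 23 longer guidance genes had a median deviation of -0.14 in control replicate 2. It was -0.17 in LiCl replicate 1 and 0.12 in LiCl replicate 2. Their median length was 9785 bases. All genes in the length bin with a median of 8587 bases had median deviations of -0.05, -0.02 and 0.02 in these samples. In the longest bin, with a median of 12623 bases, the values were -0.10, -0.06 and 0.05. The cause of the larger deviations of the guidance genes was not tested. The median deviation of the 23 shorter guidance genes stayed between -0.02 and 0.01 in all samples. Single genes among them deviated more, such as *Ntn1* with 0.25 in control replicate 1 and -0.21 in control replicate 2. Between the groups the median log2 fold change was -0.26 for the longer and -0.23 for the shorter guidance genes. With an offset for gene length in the fit, 29 guidance genes fell and 7 rose, among them all 27 and all 5 of the analysis without offset.

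**Figure D5:**
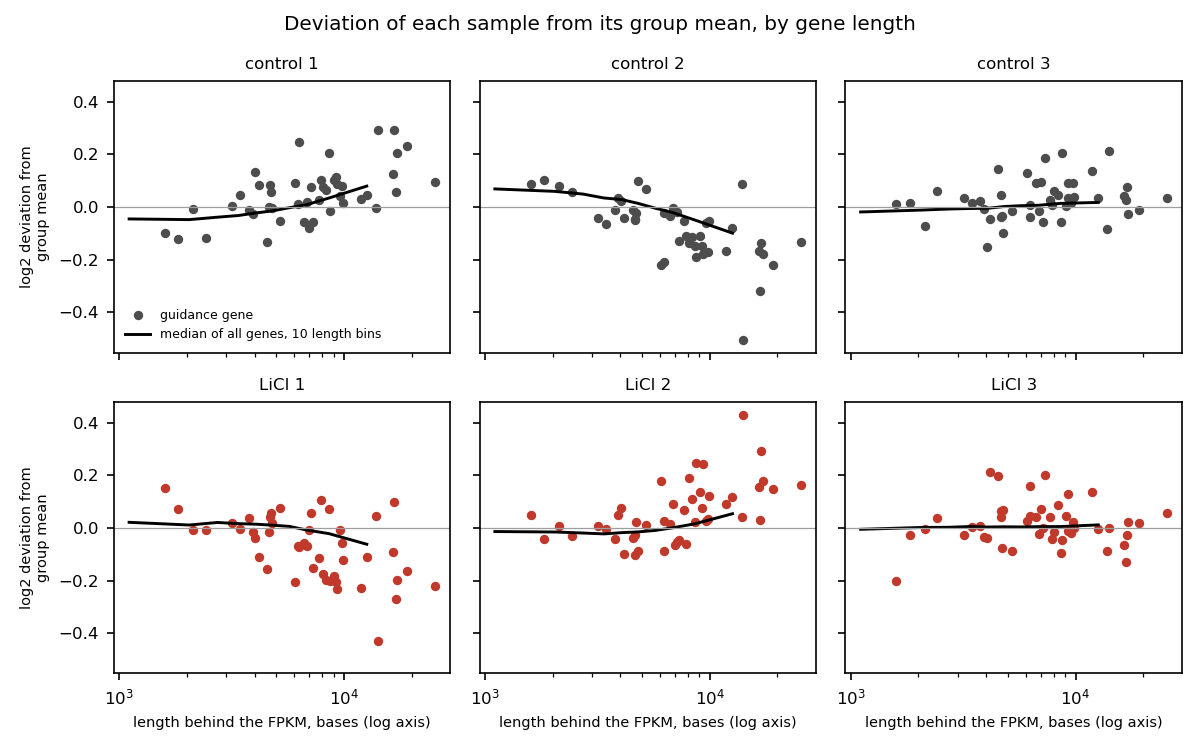
Each panel is a sample and shows, against the length in bases used for the FPKM (log axis), the log2 deviation of each of 46 guidance genes from the mean of the group, with the median of all genes in 10 length bins as a black line. Long genes lie low in control replicate 2 and LiCl replicate 1 and high in control replicate 1 and LiCl replicate 2.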

How the data were processed

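Poly-A RNA of E12.5 ureter explants, 3 with LiCl and 3 with water, was sequenced as 150 bp paired-end reads. The authors deposited raw counts per gene made with featureCounts on GRCm39. The methods of the study name HISAT2 as aligner, whereas the submitters' processing notes list STAR 2.7, fastp 0.23, featureCounts 2.0 and DESeq2 1.40. The annotation release and the strand setting of the counting are not given in the sources used here, so overlapping and antisense genes are uncertain. The FPKM values deposited by the authors equal counts divided by DESeq2 size factors, the geometric mean of the library sizes and a whole-number length, which held in 100% of 18535 genes with over 50 counts. FPKM served for levels and for comparing genes, and counts for tests.

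Symbols were taken from GENCODE vM21 (GRCm38) and matched 52073 of 56748 identifiers, so no gene coordinates are given. Promoter windows came from RefSeq, GRCm38.p6. The genes and lists were chosen with earlier results of these data known.

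The quasi-likelihood F test of edgeR 4.0.16 (R 4.3.3) was run on the counts after filterByExpr and TMM scaling, with Benjamini-Hochberg adjustment over 18188 genes. Genes are called where the adjusted p is under 0.05 and the log2 fold change passes 1 in either direction, as in the study. The SE is the log2 coefficient over the root of F. Values per sample are given for called genes, for the most abundant and most changed gene of each of 11 families, and for genes past the test with a log2 fold change of over 0.58 in either direction. *Epha4* and *Nrp2* were added after their values were seen. On simulated counts, 96.1% of genes changed by a log2 of 1 and 100% of those changed by 2 were recovered. There were 10 false calls among 18303 genes. Smaller changes and deviations that vary with gene length were not simulated. These rates therefore do not extend to the smaller changes given here. Alternatives used DESeq2 1.42.0 and limma 3.58.1. Offsets for length and the exclusion of 2 samples at a time were chosen after seeing the data.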

Additional observations from a re-analysis of the deposited data

How the results depend on the processing

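The number of genes that fell, 27, was 17 to 30 in the alternatives that used all samples (17 in limma on log2(FPKM + 1) without filter) and 9 to 28 where samples were left out, with 9 without LiCl replicates 1 and 3. *Ephb1*, *Ephb6*, *Sema3b*, *Sema3d*, *Sema3f*, *Slit2*, *Slit3* and *Unc5b* fell in all 18 alternatives, and *Unc5a* and *Unc5d* passed the test in the same direction in all 16 that gave them a value. Of the 18 alternatives, *Ephb4* passed in 7, *Plxna4* in 8, *Efna5* and *Robo1* in 9, *Efna1*, *Plxna3* and *Nrp2* in 10, *Plxnb2* and *Plxnd1* in 11, *Ntn1* in 12 and *Epha4* in 13, and *Slit1* in 8 of 15. *Robo2* and *Plxna2*, which did not pass with edgeR and TMM scaling, passed in 6 each. The cause of these losses was not tested. The share of all tested genes that fell varied as well. It was 22.4% in the main analysis, 10.4% with DESeq2, 12.1% without filter and 9.04% in limma without filter. In the same order, 21.1%, 11.4%, 13.4% and 10.1% of all tested genes rose. In the other fits on all samples with such counts, 19.8% to 24.9% fell and 18.1% to 23.9% rose. Each count here belongs with the share of its own fit. The 5 genes that rose became 3 with the replicate block, 2 in limma on log2(FPKM + 1) and on log2(FPKM + 0.1) for genes with a mean of at least 0.5 FPKM, 1 in limma on log2(FPKM + 1) without filter, and 1 to 7 with samples left out. *Slit1* and *Unc5d* were not tested at a mean of at least 0.5 FPKM, where *Nrp2* was the gene lost, and *Slit1* was not tested with a minimum of 10 counts in all samples. The gene called higher became 0 with DESeq2, with a minimum of 10 counts in all samples, with the replicate block, in the 3 limma fits and in glmTreat against a log2 of 1, and 0 to 1 with samples left out. The gene called lower became 2 with library size only and with the offset for gene length, 0 in the 3 limma fits and glmTreat, and 0 to 3 with samples left out. In the fits that did not test *Slit1* or *Unc5a*, which lay under 0.5 FPKM, a count of 0 is no lost call. In the list of other ligands and receptors, the gene that rose became 2 with RLE size factors, 0 with library size only, 3 without filter, 2 with a minimum of 10 counts in all samples, 0 with the replicate block and in limma without filter, and 0 to 1 with samples left out. The 11 effector genes that fell became 5 to 13 with samples left out.

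The sources used here do not state whether samples of the same replicate number belong together. The deviations cannot decide this, since they sum to 0 within a group of 3 samples and varied with gene length. Deviations from the group mean correlated at -0.02, -0.21 and 0.14 between samples of the same number, and control replicate 2 correlated best with LiCl replicate 1 (0.21). With the replicate block 23 genes fell and 3 rose, of which 22 and 3 were shared with the analysis without block.

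The sign of the log2 fold change turned in some genes that passed the test in no setting. *Efna4* became 0.0072 with RLE size factors, 0.013 with DESeq2, 0.024 without filter, 0.0074 in both limma fits with a pseudocount of 1, 0.0075 with 0.1 and 0.061 with the length offset, and lay between -0.080 and 0.099 with samples left out. *Sema3c* became 0.0033 with DESeq2, 0.013 without filter and 0.0035 in the 3 limma fits, and lay between -0.058 and 0.030 with samples left out. *Epha8* became 0.0020 with DESeq2, 0.012 without filter and 0.00080 and 0.00085 in limma at pseudocounts of 1 and 0.1, and lay between -0.041 and 0.030 with samples left out. With samples left out, *Epha6* lay between -0.12 and 0.45, *Plxna1* between -0.012 and 0.24 and *Ephb2* between -0.17 and 0.044. Depth limits what can be said of *Slit1*, *Robo3*, *Epha6*, *Plxnb3* and *Ntn4*, which rest on few counts. The protein identity within families was not run.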
